A study of Homo sapiens with 24 samples.

Results

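Among the 57820 genes counted in each library, the 10 genes described here encode the core AP-1 subunits of the FOS family (FOS, FOSB, FOSL1 and FOSL2) and of the JUN family (JUN, JUNB and JUND) and the early growth response factors EGR1, EGR2 and EGR3. They were chosen by gene name, and all 10 passed the low-count filter (on average 1 or more counts a library) in both cell lines. AP-1 is a dimer of a FOS and a JUN protein, or of JUN proteins, that binds short DNA elements through a basic region and a leucine zipper. EGR proteins bind GC-rich elements through zinc fingers. FOS, EGR1 and JUNB are among the classical immediate-early genes. Serum, growth factors and stress switch them on within minutes through MAP kinases, serum response factor and its ETS partners, and the transcripts decay quickly. FOSL1, which encodes FRA-1, is a slower member that AP-1 itself can maintain, and it is well known in invasive squamous carcinoma.

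RNA-seq was carried out in Cal33 and SAS, established HNSCC lines (squamous carcinoma of the head and neck, here of the tongue), both described as wild type. Each line had 4 groups of 3 replicates, 24 libraries in all: sham, GSK-J1 at 4.5 µM, a single x-ray dose of 4 Gy, and GSK-J1 with 4 Gy, with RNA taken after 24 h. GSK-J1 inhibits the KDM6 demethylases of histone H3 lysine 27. Each line is 1 cell culture model, and the labels do not say whether the 3 replicates of a group were separate cultures, so p-values measure the spread between these libraries, which may be technical. Values are CPM, counts scaled to a common library total with TMM, a normalization on the bulk of genes, and tests are edgeR quasi-likelihood tests with Benjamini-Hochberg adjustment over all genes tested, called at an adjusted p under 0.05. An error after a log2 fold change is its standard error (SE).

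Total counts were 54200036 to 96848227 per library. All 7 squamous markers looked up were detected in every library, from 6.31 CPM upward in SAS and from 109 CPM in Cal33. Of 8 markers of other cell types, 7 were found in the files. In each line 5 of these 7 stayed under 1 CPM in every library, while COL1A1 reached 45.0 CPM in Cal33 and VWF 10.7 CPM in SAS. The sum over these 7 markers was 28.8 to 48.4 CPM without and 27.4 to 37.5 CPM with irradiation in Cal33, and 4.87 to 14.6 CPM against 8.15 to 12.8 CPM in SAS. Cal33 transcripts in SAS were sought with 13 genes. These had 20 CPM or more in every Cal33 library and under 0.05 CPM in the SAS sham and 4 Gy libraries. SAS GSK-J1 replicate 1 reached 1.54% of the Cal33 level and SAS GSK-J1 with 4 Gy replicate 1 reached 0.772%. The remaining 10 SAS libraries stayed at 0.010% or less. For the sham and 4 Gy libraries among them this was fixed by the choice of genes, so it does not show that they lack Cal33 transcripts. Results in SAS were therefore also computed without the 2 libraries at 1.54% and 0.772%.

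In Cal33, 4 Gy was followed at 24 h by higher FOSL1, JUN, FOSB and EGR2 transcripts. The other members, FOS, EGR1 and JUNB among them, showed no call for 4 Gy against sham. EGR2 rested on only 8, 1 and 5 counts in the sham libraries, and with GSK-J1 present only FOSL1 and JUN were called. In SAS, 4 Gy was followed by higher FOSL1 and lower JUND in the tests that ignore replicate numbers. With the replicate number as a block, under which 24.5% of all genes passed, FOSB and JUN were also called higher in SAS. GSK-J1 moved no member past the threshold in either line with or without irradiation in the tests that ignore replicate numbers. Within a line, the widest spread of FOS and EGR1 between libraries of 1 group was larger than any difference between their group means.

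**Figure D1:**
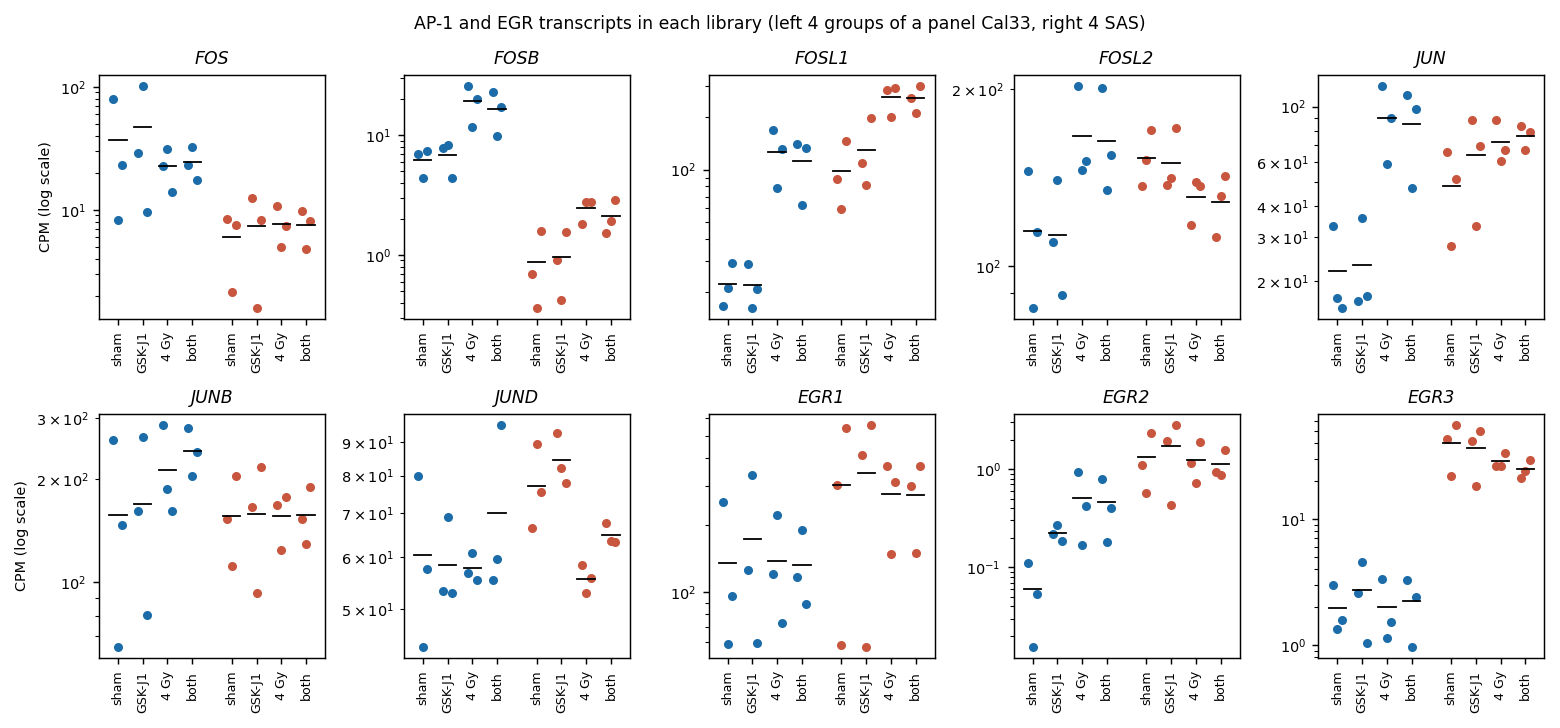
Level of each of the 10 genes in all 24 libraries, in CPM on a log axis, with a black bar at the mean of each group of 3; blue points are Cal33 and red points SAS, and "both" is GSK-J1 with 4 Gy. FOSL1 separates the irradiated from the unirradiated libraries in both lines, whereas the FOS and EGR1 points of 1 group are widely scattered.

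Promoter sequences are shown only for windows that held a match to the elements searched, those of JUN, JUND, EGR1 and a single EGR2 start. JUN and EGR2 rose after irradiation in Cal33, JUND fell in SAS, and EGR1 showed no call. The windows of FOS, FOSB, FOSL2 and JUNB held no match and are not shown. Of these, FOSB also rose in Cal33, as did FOSL2 in the average over both drug states. RefSeq promoter sequences (build GRCh38.p14) were searched for 8 of the 10 members. None was found for FOSL1, and EGR3 was left out of the search. Each line gives the 250 bases before the start of transcription, 5′ to 3′ on the strand of the gene. Capitals mark matches on either strand to the AP-1 element TGANTCA, the cyclic AMP response element TGACGTCA, its variant TGACATCA, the EGR elements GCGTGGGCG and GCGGGGGCG, and the CArG box, to which serum response factor binds.
JUN (chr1:58784048-58784297, minus strand): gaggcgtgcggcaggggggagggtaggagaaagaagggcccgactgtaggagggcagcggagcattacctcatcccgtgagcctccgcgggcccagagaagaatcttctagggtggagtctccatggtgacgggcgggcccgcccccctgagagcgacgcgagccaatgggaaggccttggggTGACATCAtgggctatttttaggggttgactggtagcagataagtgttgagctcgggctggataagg
JUND (chr19:18281623-18281872, minus strand): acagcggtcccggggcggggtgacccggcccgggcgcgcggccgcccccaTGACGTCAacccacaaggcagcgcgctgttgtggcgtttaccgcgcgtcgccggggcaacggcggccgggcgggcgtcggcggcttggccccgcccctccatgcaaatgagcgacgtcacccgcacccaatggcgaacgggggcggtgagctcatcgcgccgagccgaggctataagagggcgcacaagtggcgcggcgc
EGR1 (chr5:138465229-138465478, plus strand): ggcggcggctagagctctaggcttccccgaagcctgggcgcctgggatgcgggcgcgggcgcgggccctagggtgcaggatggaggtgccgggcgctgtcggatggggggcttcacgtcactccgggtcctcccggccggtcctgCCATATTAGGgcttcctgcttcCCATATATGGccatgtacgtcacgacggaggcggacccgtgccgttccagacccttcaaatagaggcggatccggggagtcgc
EGR2 (chr10:62816367-62816616, minus strand): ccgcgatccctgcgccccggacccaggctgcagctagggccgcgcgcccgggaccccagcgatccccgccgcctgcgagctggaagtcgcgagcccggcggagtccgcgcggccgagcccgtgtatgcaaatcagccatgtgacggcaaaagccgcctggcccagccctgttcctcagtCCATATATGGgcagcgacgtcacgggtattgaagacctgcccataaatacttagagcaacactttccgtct

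JUN carried TGACATCA at 67 to 60 bases before its start, an element found in 2.37% of the 35116 RefSeq promoter windows of this length. JUND carried TGACGTCA at 200 to 193 bases before its start, as did 1.65% of windows. EGR1 held 2 CArG boxes, at 105 to 96 and 83 to 74 bases before its start, and the EGR2 window printed above held 1, at 71 to 62 bases, against 1.16% of all windows with at least 1. EGR2 has 3 RefSeq starts, and the other 2 windows held none of these letters, nor did those of FOS, FOSB, FOSL2 and JUNB. Bases farther upstream than these windows were not searched. A window without a match therefore does not show that a gene, FOS included, lacks the element. The shares for the elements without a match in any of the 8 members searched were 6.57% for TGANTCA, 0.72% for GCGTGGGCG and 4.72% for GCGGGGGCG. TGANTCA and TGACGTCA cannot match the same bases, and a match shows letters, not binding.

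FOSL1 (chromosome 11, 65659520 to 65668044, minus strand, coordinates here and below from the hs37d5 build of the files) had the strongest response of the FOS family in Cal33. In Cal33 the sham libraries had 16.5, 21.1 and 29.4 CPM, the GSK-J1 libraries 28.8, 16.2 and 20.8 CPM, the 4 Gy libraries 169, 78.2 and 132 CPM, and those with both treatments 141, 62.8 and 132 CPM. The 6 irradiated libraries all lay above the 6 unirradiated ones. FOSL1 rose 5.65-fold with 4 Gy against sham (SE of the log2 fold change 0.35, adjusted p = 0.00311, edgeR), and by 2.35 ± 0.35 on the log2 scale with GSK-J1 and 4 Gy against GSK-J1 (adjusted p = 0.00457). Both calls held without any 1 of the 12 libraries, with log2 fold changes of 2.23 to 2.76 and 2.15 to 2.63.

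In SAS, FOSL1 started higher. Sham libraries had 88.6, 59.4 and 146 CPM, GSK-J1 libraries 109, 81.7 and 196 CPM, 4 Gy libraries 284, 199 and 291 CPM, and libraries with both treatments 258, 210 and 301 CPM. Again no irradiated library overlapped an unirradiated one. With 4 Gy against sham it rose by 1.40 ± 0.33 on the log2 scale (adjusted p = 0.0262, edgeR). The value was 0.99 ± 0.33 with GSK-J1 present (adjusted p = 0.107), a contrast that passed with the replicate number as a block (1.07 ± 0.14, adjusted p = 0.000138). The unblocked call against sham was lost without SAS 4 Gy replicate 1 or 3 or sham replicate 1 or 2, where the log2 fold change stayed at 1.14 or above and the adjusted p reached at most 0.0924, and it was kept without the 2 libraries holding Cal33 transcripts (1.40 ± 0.35, adjusted p = 0.0447).

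FOSB (chromosome 19, 45971253 to 45978437, plus strand) was a far scarcer transcript and overlaps ERCC1 on the other strand. Its Cal33 levels were 6.99, 4.37 and 7.41 CPM in sham, 7.77, 8.23 and 4.38 CPM with GSK-J1, 26.0, 11.8 and 20.1 CPM with 4 Gy, and 23.0, 9.81 and 17.1 CPM with both. Irradiated and unirradiated libraries did not overlap. Against sham, 4 Gy gave a log2 fold change of 1.62 ± 0.36 (adjusted p = 0.0222, edgeR). This call was lost without Cal33 4 Gy replicate 1 or 3 or sham replicate 1 or 2 (log2 fold change at least 1.35, adjusted p at most 0.0745).

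FOSB levels in SAS were 0.695, 0.363 and 1.58 CPM in sham, 0.917, 0.419 and 1.56 CPM with GSK-J1, 1.82, 2.76 and 2.77 CPM with 4 Gy, and 1.54, 1.91 and 2.87 CPM with both. Here 1 irradiated library, replicate 1 of the combination, lay below 2 unirradiated ones. The log2 fold change of 4 Gy against sham, 1.45 ± 0.49, did not pass (adjusted p = 0.0961, edgeR), and it passed with the replicate block (1.55 ± 0.31, adjusted p = 0.00227). Averaged over both drug states the rise passed at 1.28 ± 0.35 (adjusted p = 0.0205). That call was lost without SAS GSK-J1 with 4 Gy replicate 3 (adjusted p = 0.0542) and without the 2 libraries holding Cal33 transcripts.

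FOS (chromosome 14, 75745477 to 75748933, plus strand), the founding member of the family, behaved differently. In Cal33 it had 79.1, 8.31 and 23.3 CPM in sham and 28.9, 102 and 9.67 CPM with GSK-J1, a span of 10.6-fold within the GSK-J1 group. After 4 Gy it had 22.8, 31.0 and 13.9 CPM, and 23.3, 32.2 and 17.4 CPM with both treatments, all within the unirradiated range. For 4 Gy against sham the log2 fold change was −0.71 ± 0.77 in Cal33 (adjusted p = 0.635, edgeR) and 0.36 ± 0.60 in SAS (adjusted p = 0.773). In SAS, FOS stayed between 1.59 and 12.4 CPM over all 12 libraries.

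FOSL2 (chromosome 2, 28615315 to 28640179, plus strand), which encodes FRA-2, shares its locus with an annotated gene on each strand. It had 84.9 to 145 CPM in the 6 unirradiated and 135 to 203 CPM in the 6 irradiated Cal33 libraries, which overlap. Averaged over both drug states its log2 fold change with 4 Gy was 0.53 ± 0.16 (adjusted p = 0.0289, edgeR). That call was lost without any 1 of 6 libraries: GSK-J1 replicates 1 and 3, 4 Gy replicate 1, the combination's replicate 1 and sham replicates 2 and 3 (log2 fold change at least 0.45, adjusted p at most 0.0664). In SAS the value was −0.22 ± 0.08 (adjusted p = 0.0841), and with the replicate block it passed at −0.22 ± 0.04 (adjusted p = 0.00102).

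The make-up of the FOS family was compared per kilobase of exon, since longer transcripts collect more reads. FOSL1 gave 32.4% ± 14.3 (SD, n = 3) of the family's CPM per kilobase in Cal33 sham libraries and 65.4% ± 7.79 (SD, n = 3) after 4 Gy. FOS gave 24.1% ± 18.3 (SD, n = 3) and 7.61% ± 4.74 (SD, n = 3) in the same groups. In SAS, FOSL1 already made up 67.3% ± 7.77 (SD, n = 3) in sham and 86.3% ± 2.78 (SD, n = 3) after 4 Gy. The summed FOS family level in Cal33 went from 38.5 ± 13.9 to 94.8 ± 27.1 CPM per kilobase (SD, n = 3), and in SAS from 79.5 ± 27.0 to 167 ± 28.0 CPM per kilobase. FOSL1 was thus the leading FOS family transcript in both lines after irradiation, and in Cal33 sham libraries FOSL2 had the highest mean share, at 40.6% ± 3.99 (SD, n = 3). There FOS led in replicate 1 (23.4 against 19.5 CPM per kilobase for FOSL2), and FOSL1 lay close to FOSL2 in replicate 2 (10.5 against 11.1) and replicate 3 (14.9 against 15.3). These shares restate the same counts and were not tested separately.

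**Figure D2:**
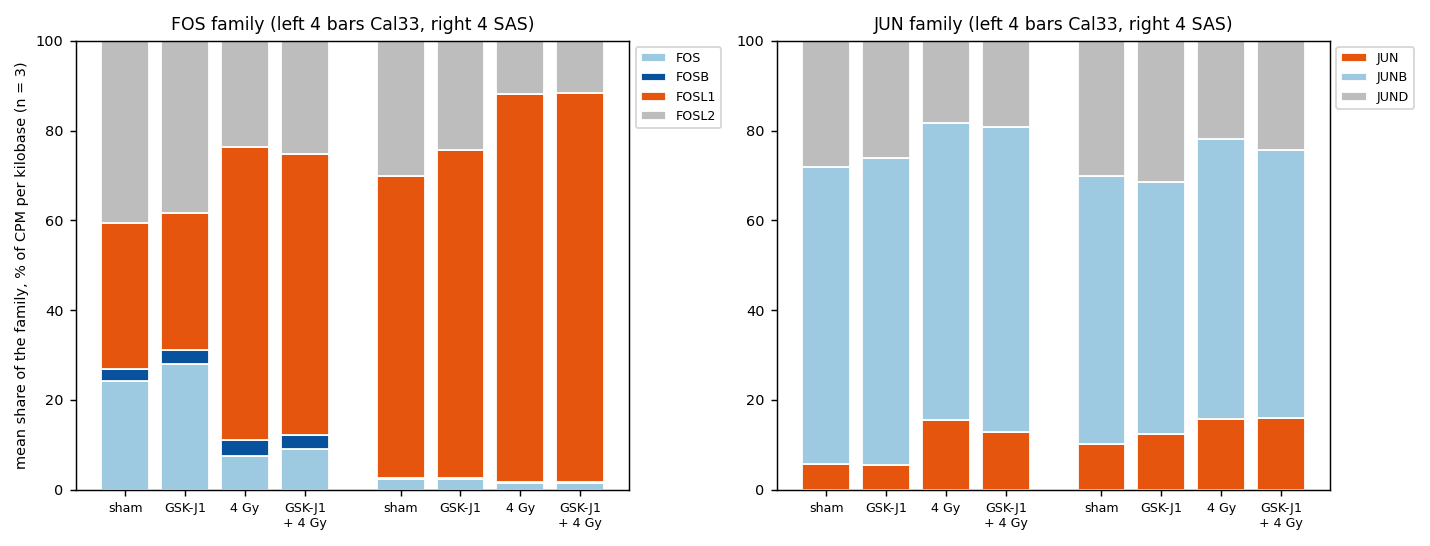
Mean share of each gene in the CPM per kilobase of the FOS family (left panel) and the JUN family (right panel), in percent, for the 4 groups of Cal33 and then the 4 of SAS (n = 3 each). The FOSL1 segment grows from 32.4% to 65.4% with 4 Gy in Cal33 and from 67.3% to 86.3% in SAS, while JUNB keeps at least 56.2% of the JUN family in every group.

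JUN (chromosome 1, 59246465 to 59249785, minus strand), the subunit phosphorylated by JNK, rose in Cal33. Sham libraries had 33.2, 17.1 and 15.7 CPM, GSK-J1 libraries 16.7, 35.7 and 17.5 CPM, 4 Gy libraries 121, 59.0 and 90.0 CPM, and libraries with both treatments 111, 47.3 and 97.8 CPM. No irradiated library overlapped an unirradiated one. Its log2 fold change was 2.04 ± 0.41 for 4 Gy against sham (adjusted p = 0.0142, edgeR) and 1.87 ± 0.41 with GSK-J1 present (adjusted p = 0.0218). The first call was lost only without sham replicate 3 (adjusted p = 0.0544), and the second without replicate 1 or 3 of either group (log2 fold change at least 1.64, adjusted p at most 0.0894).

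In SAS, JUN had 65.9, 27.7 and 51.3 CPM in sham, 88.8, 33.3 and 69.7 CPM with GSK-J1, 88.2, 60.5 and 67.2 CPM with 4 Gy, and 83.7, 67.1 and 78.9 CPM with both. The groups overlapped, and replicate 2 was the lowest library of every group. With 4 Gy against sham the log2 fold change was 0.57 ± 0.33 (adjusted p = 0.313, edgeR), and 0.64 ± 0.16 with the replicate block (adjusted p = 0.0113).

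JUND (chromosome 19, 18390563 to 18392432, minus strand), often described as the growth-restraining JUN member, fell after 4 Gy in SAS. It had 66.4, 89.6 and 75.4 CPM in sham, 93.0, 82.0 and 78.0 CPM with GSK-J1, 58.2, 52.8 and 55.8 CPM with 4 Gy, and 67.7, 63.5 and 63.2 CPM with both. All 3 libraries with 4 Gy alone lay below all sham libraries. JUND fell by 0.47 ± 0.10 on the log2 scale with 4 Gy against sham (adjusted p = 0.0182, edgeR), and with GSK-J1 present the log2 fold change was −0.38 ± 0.10 (adjusted p = 0.0564, and 0.00982 with the replicate block). The call against sham was lost without SAS 4 Gy replicate 2 or 3 or sham replicate 2 (adjusted p at most 0.0750). In Cal33 the value was −0.07 ± 0.23 (adjusted p = 0.899), with 43.7 to 79.7 CPM over the unirradiated and 55.3 to 95.6 CPM over the irradiated libraries.

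JUNB (chromosome 19, 12902310 to 12904124, plus strand), an immediate-early JUN member, overlaps HOOK2 on the other strand, and strand-aware counting gave it 1.13 times the count obtained without strand. It was the most abundant JUN family transcript per kilobase in both lines. It ranged from 64.9 to 264 CPM without and from 162 to 287 CPM with irradiation in Cal33, and from 93.2 to 216 CPM and 124 to 189 CPM in SAS, so the groups overlapped. The log2 fold change of 4 Gy against sham was 0.43 ± 0.45 in Cal33 (adjusted p = 0.614, edgeR) and 0.00 ± 0.28 in SAS (adjusted p = 0.997).

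EGR1 (chromosome 5, 137801179 to 137805004, plus strand) spread widely between libraries of the same group. In SAS it had 301, 58.0 and 545 CPM in sham, 411, 57.0 and 560 CPM with GSK-J1, 369, 148 and 311 CPM with 4 Gy, and 298, 149 and 368 CPM with both. Replicate 2 was the lowest of its group each time. In Cal33 it had 253, 58.7 and 96.1 CPM in sham, 126, 335 and 59.2 CPM with GSK-J1, 120, 221 and 73.2 CPM with 4 Gy, and 117, 190 and 89.0 CPM with both. There the highest library was replicate 2 in the 3 treated groups and replicate 1 in sham. The log2 fold change of 4 Gy against sham was 0.03 ± 0.62 in Cal33 (95% interval −1.19 to 1.24, adjusted p = 0.992, edgeR) and −0.13 ± 0.75 in SAS (95% interval −1.60 to 1.35, adjusted p = 0.948). With the replicate block over the 12 SAS libraries the value was 0.27 ± 0.35 (95% interval −0.40 to 0.95, adjusted p = 0.621, edgeR). A change of 1 on this scale lay within the unblocked intervals and just above the upper end of the blocked one.

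EGR2 (chromosome 10, 64571756 to 64679660, minus strand), best known for its part in myelination, was barely expressed in Cal33. The sham libraries held 8, 1 and 5 counts, the GSK-J1 libraries 21, 19 and 15, the 4 Gy libraries 70, 12 and 34, and those with both treatments 63, 13 and 30. This is 0.0154 to 0.111 CPM in sham and 0.170 to 0.923 CPM after 4 Gy, without overlap between these 2 groups. The log2 fold change of 4 Gy against sham was 3.03 ± 0.74 (adjusted p = 0.0320, edgeR), and it was 1.04 ± 0.63 with GSK-J1 present (adjusted p = 0.371). The call against sham was lost without Cal33 4 Gy replicate 1 or 3 or any 1 of the 3 sham libraries (log2 fold change at least 2.27, adjusted p at most 0.108). The GSK-J1 libraries also lay above all sham libraries, at a log2 fold change of 1.86 ± 0.76 that did not pass (adjusted p = 1.00). In SAS, EGR2 had 0.433 to 2.81 CPM over the 12 libraries and a log2 fold change of −0.10 ± 0.59 for 4 Gy against sham (adjusted p = 0.948).

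EGR3 (chromosome 8, 22545172 to 22550815, minus strand), a member induced downstream of the calcium and MAP kinase routes, was at 0.961 to 4.56 CPM in Cal33. In SAS it had 43.2, 22.1 and 55.9 CPM in sham, 41.4, 18.2 and 50.3 CPM with GSK-J1, 26.5, 26.5 and 33.2 CPM with 4 Gy, and 21.2, 24.2 and 29.3 CPM with both. Replicates 1 and 3 of the unirradiated groups lay above all irradiated libraries and replicate 2 did not. Averaged over both drug states the log2 fold change was −0.53 ± 0.24 (adjusted p = 0.144, edgeR), and −0.44 ± 0.15 with the replicate block (adjusted p = 0.0349). An annotated gene overlaps EGR3 on the other strand.

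Counted over the 10 members, 4 Gy against sham in Cal33 called 4, all higher, against 6.27% of all genes tested. With GSK-J1 present it called 2, both higher (5.11% of all genes). In SAS the counts were 2, FOSL1 higher and JUND lower (7.08% of all genes), and 0 with GSK-J1 present (4.42% of all genes), where 3 members had an unadjusted p under 0.05 and DESeq2 called 1, JUND. Since same-numbered libraries deviated together in every pair of SAS groups, the fits with the replicate number as a block are given as well. They called 5 members for 4 Gy against sham (24.5% of all genes) and 4 with GSK-J1 present (21.5% of all genes) in SAS. In Cal33 the same held for the groups other than sham, and a block in the 6 libraries of GSK-J1 with 4 Gy and GSK-J1 called 5 members, FOSB, FOSL1, FOSL2, JUN and JUNB (18.4% of all genes).

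Averaging over both drug states compares 6 irradiated with 6 unirradiated libraries of a line. In Cal33 it called FOSL1 (2.42 ± 0.25), JUN (1.95 ± 0.29), FOSB (1.46 ± 0.25), EGR2 (2.04 ± 0.49) and FOSL2 (0.53 ± 0.16), with adjusted p of 9e-05, 0.000709, 0.00187, 0.0107 and 0.0289 (edgeR). These 5 of 10 members, all higher, stand beside 21.5% of all genes. The median log2 fold change of the 10 members was 0.50, against 0.02 over all genes tested. In SAS it called FOSL1 (1.19 ± 0.23), FOSB (1.28 ± 0.35) and JUND (−0.43 ± 0.07), with adjusted p of 0.00400, 0.0205 and 0.00185. These 3 of 10 stand beside 20.2% of all genes, and the replicate block called 6, adding JUN higher and EGR3 and FOSL2 lower, beside 37% of all genes. The median over the members in SAS was −0.11. Without the 2 libraries holding Cal33 transcripts, FOSL1 and JUND were called.

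**Figure D3:**
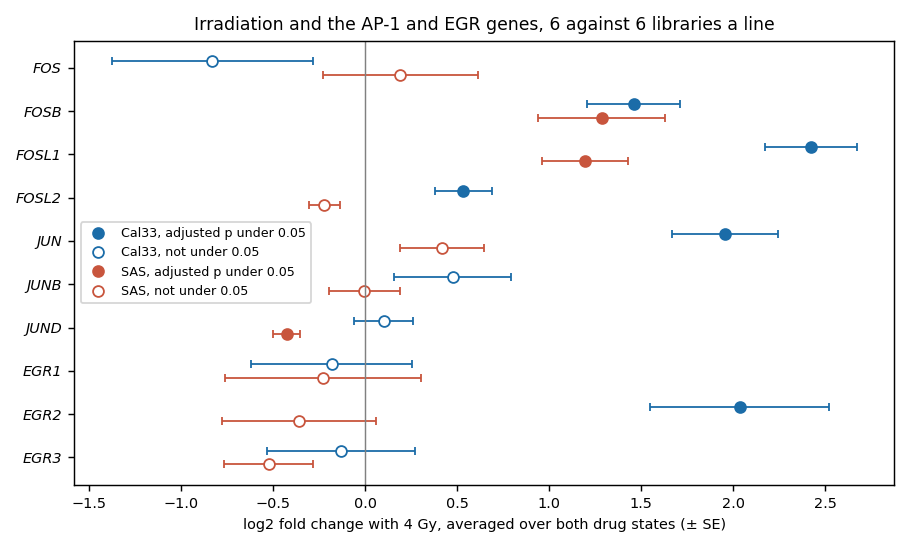
Log2 fold change with 4 Gy averaged over both drug states, with its SE, for each gene in Cal33 (blue) and SAS (red), 6 against 6 libraries a line; filled points have an adjusted p under 0.05. FOSL1 and FOSB are filled and to the right of 0 in both lines, JUN, EGR2 and FOSL2 in Cal33, and JUND is filled and to the left in SAS.

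The size of the irradiation effect was compared between the lines in 1 fit of all 24 libraries. The effect was larger in Cal33 than in SAS for JUN, by 1.52 ± 0.40 on the log2 scale (adjusted p = 0.0284, edgeR), and for FOSL2, by 0.73 ± 0.19 (adjusted p = 0.0314). These 2 of 10 members stand beside 4.9% of all genes. The differences for EGR2 (2.37 ± 0.70, adjusted p = 0.0542) and FOSL1 (1.21 ± 0.36, adjusted p = 0.0583) did not pass by edgeR without a block. Both passed with DESeq2 (adjusted p = 0.00771 and 0.0146) and with the replicate block in edgeR (2.11 ± 0.43, adjusted p = 0.00364, and 1.06 ± 0.22, adjusted p = 0.00371), as did JUN and FOSL2. That block also joined the Cal33 sham libraries by number, which were not taken to pair with the other Cal33 groups. The blocked calls therefore do not settle these differences. For FOSB the difference was 0.15 ± 0.46 (95% interval −0.74 to 1.05). Without the 2 SAS libraries holding Cal33 transcripts no member was called. The call for JUN was also lost without any 1 of 10 libraries: in Cal33, 4 Gy replicate 1, GSK-J1 replicate 3, the combination's replicates 1 and 3 and sham replicate 2, and in SAS, 4 Gy replicates 2 and 3, GSK-J1 replicate 1, the combination's replicate 2 and sham replicate 1 (difference at least 1.34, adjusted p at most 0.0628). That for FOSL2 was lost without any 1 of 7: in Cal33, 4 Gy replicate 1, GSK-J1 replicate 3 and the combination's replicate 1, and in SAS, 4 Gy replicate 1, GSK-J1 replicate 3, the combination's replicate 1 and sham replicate 3 (difference at least 0.64, adjusted p at most 0.0618).

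GSK-J1 was compared with sham and, among irradiated cells, the combination with 4 Gy alone. No member was called in either contrast or in their average in Cal33 or SAS, nor was any other gene by edgeR (0% in all 6 tests, with 215 to 583 genes at an unadjusted p under 0.05). DESeq2 called 0 to 3 genes in these tests. At an unadjusted p under 0.05, edgeR and DESeq2 alike listed 1 member for GSK-J1 against sham in Cal33 (EGR2 by edgeR), 1 for the average in SAS (JUND by edgeR) and 0 in the other 4, and DESeq2 called 0 members. For FOSL1 the averaged log2 fold change with GSK-J1 was −0.10 ± 0.24 in Cal33 (95% interval −0.57 to 0.37) and 0.19 ± 0.23 in SAS (95% interval −0.26 to 0.65). The widest 95% interval of this average over the 10 members ran from −0.84 to 1.29 for FOS in Cal33 and from −0.96 to 1.12 for EGR1 in SAS. The interaction of GSK-J1 with 4 Gy called no member and no gene in Cal33 or SAS (0% in both), and neither did the line difference of the averaged GSK-J1 effect (0%). At an unadjusted p under 0.05 these 3 edgeR tests listed 209 to 526 genes and 0 members, and DESeq2, which called 0 to 2 genes, listed 1 member for the Cal33 interaction and 0 in the others.

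With the replicate block in the 6 SAS libraries of a contrast alone, small shifts passed, and with the same block over all 12 SAS libraries none of them did. GSK-J1 against sham called FOSL1 at 0.40 ± 0.05 (adjusted p = 1.24e-05, edgeR) and JUN at 0.39 ± 0.05 (adjusted p = 3.9e-05), 2 of 10 members beside 2.59% of all genes. Over the 12 libraries the values were 0.39 ± 0.14 (adjusted p = 0.665) and 0.39 ± 0.16 (adjusted p = 0.795). Both were higher in the GSK-J1 library than in the same-numbered sham library in 3 of 3 pairs. Among irradiated cells the block called JUND at 0.22 ± 0.04 (adjusted p = 0.00038) and EGR3 at −0.21 ± 0.05 (adjusted p = 0.00299), beside 7.98% of all genes. Over the 12 libraries these were 0.22 ± 0.09 (adjusted p = 0.705) and −0.19 ± 0.21 (adjusted p = 0.856). Each of these contrasts includes 1 library that holds Cal33 transcripts. Without the 2 such libraries and without a block, JUN had 0.09 ± 0.34 for GSK-J1 against sham in place of 0.40, FOSL1 0.50 ± 0.38 in place of 0.39, and for the combination against 4 Gy EGR3 had −0.10 ± 0.40 in place of −0.21 and JUND 0.19 ± 0.11 in place of 0.22. The part of these transcripts in the shifts was not tested in the blocked fits.

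The lines differed at baseline in 8 of the 10 members, beside 54.5% of all genes called between Cal33 sham and SAS sham. FOS and FOSB were higher in Cal33, by 2.47 ± 0.80 and 2.65 ± 0.48 on the log2 scale (adjusted p = 0.0119 and 7.6e-05, edgeR). EGR2, EGR3, FOSL1, JUN, FOSL2 and JUND were lower in Cal33, with log2 fold changes of −4.58 ± 0.82, −4.51 ± 0.56, −2.28 ± 0.38, −1.29 ± 0.40, −0.56 ± 0.20 and −0.50 ± 0.19 (adjusted p from 4.84e-07 to 0.0297). EGR1 (−1.29 ± 0.77, adjusted p = 0.161) and JUNB (−0.14 ± 0.41, adjusted p = 0.801) did not pass. The calls for FOS, JUN, FOSL2 and JUND were each lost without 1 of 2 or 3 sham libraries: FOS without Cal33 replicate 1 or SAS replicate 2 (adjusted p at most 0.187), JUN without Cal33 replicate 3 or SAS replicate 1 (0.0700), FOSL2 without Cal33 replicate 2 or SAS replicate 3 (0.119), and JUND without Cal33 replicate 2 or 3 or SAS replicate 2 (0.179).

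Per kilobase, the order of levels in Cal33 sham libraries ran JUNB (82.7 ± 52.1 CPM per kilobase, SD, n = 3), EGR1 (41.3 ± 31.6), JUND (30.7 ± 9.57), FOSL2 (15.3 ± 4.18), FOSL1 (11.3 ± 3.32), FOS (10.9 ± 11.1), JUN (6.31 ± 2.85), FOSB (1.07 ± 0.293), EGR3 (0.386 ± 0.178) and EGR2 (0.0155 ± 0.0125). Ranges of neighbours were separate between JUND and FOSL2 and between each pair from JUN down to EGR2, and overlapped elsewhere. In SAS it ran EGR1 (101 ± 81.6), JUNB (90.8 ± 26.8), FOSL1 (54.8 ± 24.4), JUND (43.6 ± 6.59), FOSL2 (22.6 ± 2.44), JUN (15.4 ± 6.15), EGR3 (8.79 ± 3.69), FOS (1.97 ± 1.10), EGR2 (0.381 ± 0.254) and FOSB (0.167 ± 0.119). Here ranges of neighbours were separate between JUND and FOSL2, EGR3 and FOS, and FOS and EGR2.

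Deviations of the members from their group means were compared across the 12 libraries of a line, on log2(CPM + 1), as a description. FOS and EGR1 moved together, with r = 0.97 in Cal33 and 0.93 in SAS, and FOS and JUNB with r = 0.89 and 0.83. FOS and FOSL1 had r = −0.42 in Cal33 and 0.69 in SAS. Libraries of the same replicate number share whatever distinguishes that number, and all 12 share the normalization of their line. In SAS the libraries numbered 2 held the lowest FOS and EGR1 of every group.

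**Figure D4:**
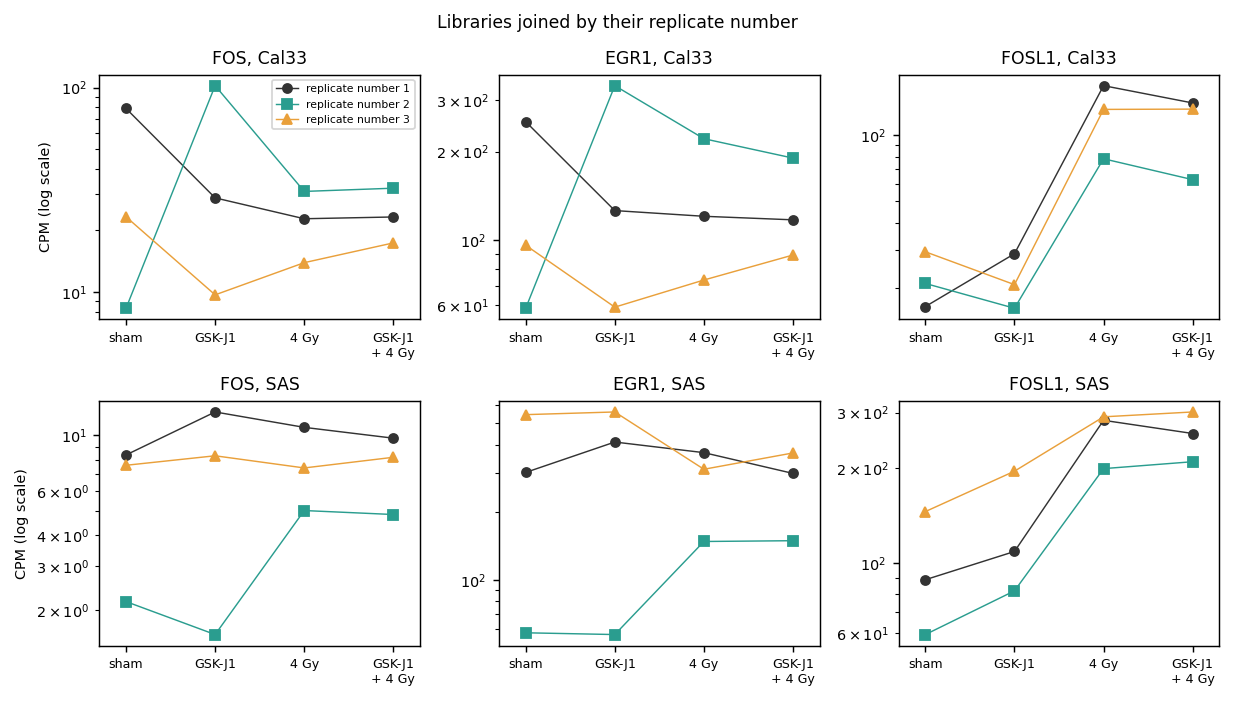
CPM (log axis) of FOS, EGR1 and FOSL1 in the 4 groups of Cal33 (top) and SAS (bottom), with libraries of the same replicate number joined by lines. In SAS replicate 2 is lowest for all 3 genes in each group, from 1.59 CPM for FOS, while FOSL1 climbs with 4 Gy along all 3 lines in both cell lines.

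Patterns most like each member were sought among 12065 genes with a mean of at least 100 counts per library in both lines, taking the lower of the 2 lines' Pearson r over 12 libraries. FOS was most like EGR1 (0.92) and IER2 (0.88), and EGR1 most like FOS (0.92) and IER2 (0.86). JUNB was most like IER2 (0.95) and KLF10 (0.85). JUN was most like CYR61 (0.93) and HBEGF (0.91), FOSL1 most like ZNF259 (0.97) and VEGFC (0.96), and FOSB most like MAP1LC3B (0.94) and IL11 (0.94). FOSL2 went with KLF8 (0.90) and C1RL-AS1 (0.87), JUND with PRR7 (0.82) and CNNM2 (0.81), EGR2 with SARS (0.84) and FUT1 (0.84), and EGR3 with ZFP36L1 (0.84) and THBD (0.81). The libraries of a line share their treatments and replicate numbers, so these values are descriptions of pattern.

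Among 15 genes with well-known AP-1 elements, the averaged 4 Gy effect in Cal33 passed for 10 higher and 2 lower, and in SAS for 12 higher and 0 lower. The median log2 fold change was 0.65 in Cal33 and 0.82 in SAS, beside 0.02 and −0.01 over all genes, of which 21.5% and 20.2% passed. In Cal33 the cytokine IL6 rose by 5.73 ± 0.41 (from a sham mean of only 0.058 CPM). There the urokinase receptor PLAUR rose by 2.48 ± 0.31 and the cornified envelope gene SPRR1B by 2.25 ± 0.23. In SAS, the chemokine IL8 rose by 2.79 ± 0.34, IL6 by 2.16 ± 0.17 and PLAUR by 1.29 ± 0.09 (adjusted p from 5.53e-06 to 0.000281 for these 6 values, edgeR). The 2 that fell in Cal33, named after their values were seen, were the collagenase MMP1 (−0.85 ± 0.19, adjusted p = 0.00861) and the stromelysin MMP10 (−2.67 ± 0.52, adjusted p = 0.00336).

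**Figure D5:**
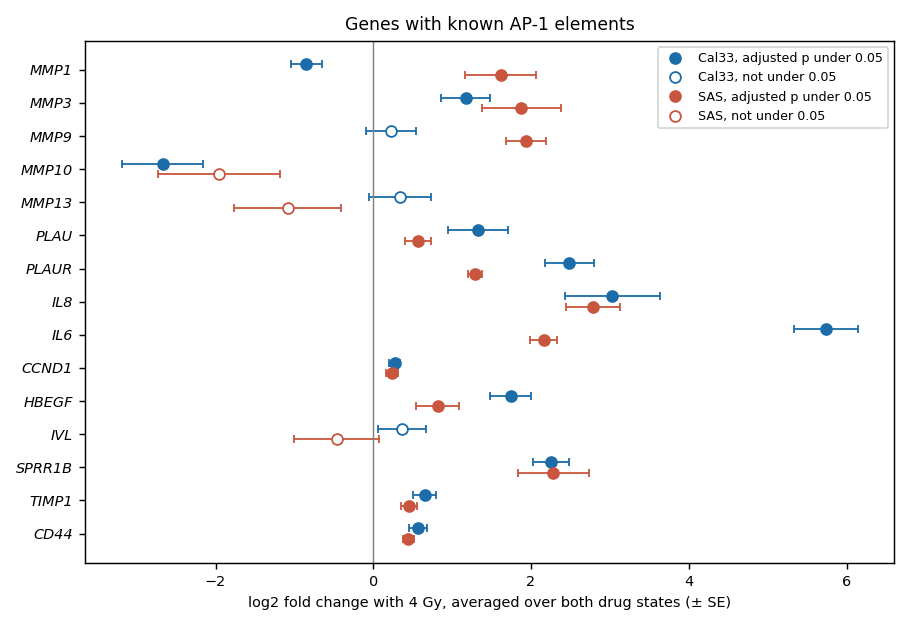
Log2 fold change with 4 Gy averaged over both drug states, with its SE, for 15 genes with known AP-1 elements in Cal33 (blue) and SAS (red); filled points have an adjusted p under 0.05. IL6, IL8, PLAUR and SPRR1B are filled and to the right in both lines, and MMP10 and MMP1 are filled and to the left in Cal33.

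Of 22 other immediate-early genes, 15 passed higher in Cal33 and 6 in SAS, with none passing lower in either line by edgeR. Over all genes tested, 21.5% passed in Cal33 and 20.2% in SAS, in either direction. The SAS count of immediate-early genes lay near that share. ARC (3.64 ± 0.37, from a sham mean of 0.295 CPM), the matricellular gene CYR61 (1.72 ± 0.18) and KLF6 (1.55 ± 0.18) had the smallest p in Cal33. In SAS these were CTGF (1.62 ± 0.22), the MAP kinase phosphatase DUSP1 (0.96 ± 0.17) and KLF6 (0.55 ± 0.10). IER2, the gene whose pattern followed FOS and JUNB, had 0.14 ± 0.23 and 0.08 ± 0.21 (adjusted p = 0.704 and 0.815). Of 13 other bZIP genes of the AP-1 superfamily, 6 passed higher in Cal33, among them BATF2 (2.13 ± 0.27), ATF3 (1.97 ± 0.33) and MAFG (0.48 ± 0.08). In SAS 3 passed higher and 2 lower, among them MAFF (0.75 ± 0.16), MAF (1.16 ± 0.31, from a sham mean of 0.0911 CPM) and ATF2 (−0.31 ± 0.07).

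Upstream of the members, 2 of 12 MAP kinase genes passed in Cal33, MAP2K1 higher (0.51 ± 0.09) and MAPK3, which encodes ERK1, lower (−0.42 ± 0.07). In SAS 1 passed, MAP2K1 higher (0.48 ± 0.06). Over all genes tested, 21.5% passed in Cal33 and 20.2% in SAS, in either direction. The MAP kinase counts were not above these shares. Of 6 genes of serum response factor and its partners, MKL2 passed lower in Cal33 (−0.44 ± 0.08) and in SAS (−0.26 ± 0.06), and ELK3 passed higher in SAS (0.64 ± 0.11). Of EGR4 and the 2 NAB corepressors of EGR proteins, EGR4 passed higher in Cal33 (1.54 ± 0.33, from a sham mean of 0.152 CPM). In SAS none of these 3 passed by edgeR or DESeq2, with 2 at an unadjusted p under 0.05, and NAB1 had the smallest p (−0.17 ± 0.06, adjusted p = 0.0767). Of 7 genes known as EGR1 targets, 4 passed higher in Cal33, among them tissue factor F3 (2.42 ± 0.16), VEGFA (1.20 ± 0.14) and PDGFB (1.28 ± 0.30), and in SAS PDGFB passed higher (0.48 ± 0.11) and PDGFA lower (−0.47 ± 0.11).

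Of the 7 squamous markers, 3 passed higher in Cal33 with 4 Gy, KRT6A (0.97 ± 0.17), KRT17 (1.38 ± 0.28) and SFN (0.67 ± 0.17). In SAS 2 passed higher and 2 lower, among them KRT14 (0.74 ± 0.09), KRT6A (1.45 ± 0.24) and KRT17 (−0.45 ± 0.06). These counts stand beside 21.5% of all genes in Cal33 and 20.2% in SAS. Of the other-cell markers, VWF passed lower in Cal33 (−1.08 ± 0.34), and 0 passed in SAS by edgeR or DESeq2, with 1 at an unadjusted p under 0.05. GSK-J1 averaged over both irradiation states called 0 genes of these 9 lists in either line by edgeR or DESeq2, with 0 in Cal33 and 2 in SAS at an unadjusted p under 0.05 by edgeR. The part of cell composition in the members' changes was not tested, and in bulk libraries a shift in the share of cells and a shift in RNA per cell cannot be told apart.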

How the data were processed

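The authors aligned stranded total RNA reads with STAR 2.5.3a to hs37d5 and counted reads per gene with featureCounts (Subread 1.5.1), with SAMtools 1.6 also listed in the submitters' processing notes. The deposited files hold raw counts per gene with and without regard to strand, and the reverse-stranded counts were used (94.4% to 95.2% of the counts of both strands in each library). Deposited RPKM-like and TPM columns were not used. Genes averaging 1 or more counts a library were tested with edgeR 4.0.16 (R 4.3.3; quasi-likelihood F test, TMM) over the 12 libraries of a line, or all 24 for line comparisons. SE is the log2 fold change divided by the square root of F, and 95% intervals are 1.96 SE. These intervals are somewhat narrower than the F test implies. For the combination against 4 Gy in SAS, JUND had 0.017 to 0.424 at an unadjusted p of 0.054 (edgeR). DESeq2 1.42.0 was an alternative. The scripts were tested on simulated data, where DESeq2 let through a larger share of unchanged genes than edgeR. Samples were grouped by the labels, and replicate numbers come from the labels. Deviations of same-numbered libraries from their group means (log2(CPM + 1), genes with a mean of 10 counts) correlated at 0.316 or above in every pair of SAS groups, at 0.154 or above between the Cal33 groups other than sham, and at −0.628 to 0.455 between Cal33 sham and the others, so the numbers were taken to pair the SAS libraries and the Cal33 libraries other than sham. Likeness used log2(CPM + 0.01). All 10 members are named; from each gene list the genes called, at most 3 with the smallest p, or else the 1 with the smallest p, are named, with exceptions stated; and for each member the 2 genes most like it. The members and lists were chosen with earlier results of these data known. From the list of genes with AP-1 elements 1 gene is not reported here.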

Additional observations from a re-analysis of the deposited data

Results flagged for a closer look

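The effect of 4 Gy averaged over both drug states differed between the lines for JUN and FOSL2 by a test of the difference in 1 edgeR fit. For JUN it was larger in Cal33 by 1.52 on the log2 scale (Cal33 1.95 ± 0.29, SAS 0.42 ± 0.23, SE). For FOSL2 the difference was 0.73, with a rise of 0.53 ± 0.16 in Cal33 and −0.22 ± 0.08 in SAS. Without the 2 SAS libraries holding Cal33 transcripts neither gene was called (adjusted p = 0.0848 for JUN and 0.0742 for FOSL2, edgeR). Each call was also lost without any 1 of several single libraries, as given above. Groups of 3 were too small for the test of single outlying libraries.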

How the results depend on the processing

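With 3 libraries a group, depth did not limit most members, but EGR2 in Cal33 rested on 1 to 70 counts a library. At an adjusted p under 0.01, 4 Gy against sham called 1 member in Cal33 and 0 in SAS, the averaged 4 Gy effect 3 in Cal33, GSK-J1 with 4 Gy against GSK-J1 1 in Cal33, the line difference of 4 Gy 0, and Cal33 sham against SAS sham 5. With the replicate block, 4 Gy against sham in SAS called 5 (4 in the 6 libraries alone), the averaged effect in SAS 6, GSK-J1 with 4 Gy against GSK-J1 in SAS 4 in either fit and in Cal33 5 in the 6 libraries, and the line difference 4; the block in the 6 SAS libraries called 2 for GSK-J1 against sham and 2 for the combination against 4 Gy. It moved no other count of called members by over 1.5 times. For the line difference the block also joined the Cal33 sham libraries, whose numbers were not taken to pair. For the combination against GSK-J1 in SAS, DESeq2 called 1 and testing without the count filter 2. For the line difference of 4 Gy, DESeq2 called 4, testing without the filter 4, and leaving out the 2 SAS libraries with Cal33 transcripts 0.

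Leaving out 1 library at a time, the members called ranged from 2 to 4 for 4 Gy against sham in Cal33, 0 to 3 in SAS, 1 to 3 and 0 to 1 for GSK-J1 with 4 Gy against GSK-J1, 4 to 5 and 2 to 4 for the averaged 4 Gy effect, 6 to 8 between the shams and 0 to 4 for the line difference of 4 Gy. The FOSL1 value for GSK-J1 against sham in SAS ranged from −0.044 to 0.80, the negative value without GSK-J1 replicate 3. For members called in some fit, 951 of 1084 values kept their direction and side of the threshold, 73 lost the call, 59 gained it and 1 reversed, the FOSL1 value just given. Of 2686 values of members called in no fit, 346 had the other sign. The cause of these changes was not tested.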
